A study of Mus musculus with 28 samples.

Results

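Tubulin isotypes are the products of separate genes for the alpha and beta subunits that pair into the building block of microtubules. The 10 isotype genes described here are 4 alpha genes (Tuba1a, Tuba1b, Tuba1c and Tuba4a) and 6 beta genes (Tubb2a, Tubb2b, Tubb3, Tubb4a, Tubb5 and Tubb6). They were chosen by symbol from the 45513 genes listed for each library, a rule that uses no measured value. Earlier results of these data were known when they were chosen. The study sequenced ribosome footprints, the stretches of mRNA that ribosomes shield from nuclease, and poly(A)-selected total mRNA from each of 14 mouse cultures, which gave 28 libraries. MN1 cells, a line made by fusing motor neurons of mouse spinal cord with neuroblastoma cells, were transiently transfected with GFP, with human TDP-43 (hTDP-43) or with its disease-linked variant hTDP-43 A315T, in 2 cultures each. Cortical neurons were prepared from mouse embryos on day 16 and kept for 14 days in vitro. They were non-transgenic (WT, 2 cultures) or hemizygous for a transgene in which the prion promoter drives hTDP-43 (3 cultures) or hTDP-43 A315T (3 cultures). All neuron cultures received Ara-C, which kills dividing cells. MN1 cells were given cycloheximide at 100 µg/ml for 3 min before lysis, and neurons were not, so cell type and drug cannot be told apart in the footprints.

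Mammalian tubulin genes encode proteins that are almost alike over most of their length and diverge mainly in the acidic C-terminal tail, where enzymes add or remove glutamates and tyrosine and where motors and microtubule-associated proteins bind. Cells adjust their tubulin mRNAs to the pool of free subunits. In this autoregulation, TTC5 recognises the first residues of the nascent chain on the ribosome and the mRNA is then degraded. Tuba1a and Tubb2b are major isotypes of the developing brain, Tubb3 is the classical neuronal beta isotype, Tubb4a is best known from myelinating and adult brain cells, and Tubb5, Tubb6, Tuba1b and Tuba1c are used widely outside the nervous system.

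Assigned reads ranged from 166064 to 2528820 per neuron footprint library, from 600385 to 6969578 per neuron total mRNA library, from 332370 to 1219222 per MN1 footprint library and from 1328528 to 2988339 per MN1 total mRNA library. A count of 3 corresponded to between 1.19 and 18.1 CPM (the count in relation to the size of its library) in neuron footprints. Reads of the 10 isotypes made up 1.01% to 1.31% of the neuron footprints, 0.287% to 0.607% of the neuron total mRNA, 0.443% to 0.494% of the MN1 footprints and 0.311% to 0.354% of the MN1 total mRNA. In neuron total mRNA, replicate 3 of WT and replicate 3 of hTDP-43 stood apart from the other 6 libraries: Lars2 took 18.8% and 14.1% of their reads (3.09% to 7.49% in the others), and the isotypes took their lowest shares there, 0.287% and 0.318%. Without these cultures, a choice made after seeing the data, 6 isotypes were still higher in neurons than in MN1 cells in both library types, and 7 were still higher in neuron footprints than in neuron total mRNA. Calls over all genes in the fits without these cultures are not given here, so these isotype counts are a description only. In total mRNA the 10 neuron markers summed to between 2708 and 3901 CPM in neurons and to between 92.5 and 120 CPM in MN1 cells, where Neurod6 was at 0 and Snap25 had the highest median (53.2 CPM). The 7 astrocyte markers summed to between 65.0 and 165 CPM in neurons and to between 6.17 and 26.7 CPM in MN1 cells. The 8 markers of the oligodendrocyte lineage summed to between 53.7 and 114 CPM in neurons. Microglial markers stayed at or below 3.85 CPM in sum in neurons, and markers of fibroblasts and vessels reached 35.1 CPM. The 5 markers of dividing cells summed to between 433 and 696 CPM in MN1 cells and to between 4.15 and 12.9 CPM in neurons. The 7 motor neuron markers summed to between 50.1 and 78.8 CPM in MN1 cells and to between 5.63 and 11.7 CPM in neurons. Of these, Isl1 (median 30.6 CPM) and Slc18a3 (median 25.5 CPM) were the highest in MN1 cells, while Chat was at a median of 0.996 CPM and Mnx1 at 1.05 CPM. These values are of bulk samples, in which fewer cells of a type and less RNA per cell cannot be told apart. Reads assigned to Tardbp lay between 217 and 430 CPM in the total mRNA of MN1 cells and between 55.9 and 106 CPM in that of neurons. In MN1 total mRNA their log2 fold change against GFP was 0.71 ± 0.13 with hTDP-43 A315T (edgeR adjusted p of 0.85) and 0.72 ± 0.15 with hTDP-43, and neither passed. The study aligned reads to the mouse genome with mismatches allowed. Reads of the introduced human sequence were therefore not separated from those of mouse Tardbp, and the human sequence itself was not analysed here.

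The sequences below are the last 60 coding bases of 5 beta genes before the stop codon. They are shown because they encode the C-terminal tail, where tubulin isotypes are known to diverge. They were read from the RefSeq sequence of the mouse genome (GRCm38.p6) at the coding exons of the GENCODE annotation and are written 5′ to 3′ on the coding strand. Capitals mark the bases that have no match in an alignment to Tubb5.
Tubb5, chr17:35834985-35835044, minus strand: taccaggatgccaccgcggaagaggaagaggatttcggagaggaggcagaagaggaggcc
Tubb4a, chr17:57080693-57080752, minus strand: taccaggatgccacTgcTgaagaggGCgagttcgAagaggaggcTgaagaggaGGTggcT
Tubb2a, chr13:34074471-34074530, minus strand: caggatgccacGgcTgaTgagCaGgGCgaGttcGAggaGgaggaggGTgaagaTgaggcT
Tubb2b, chr13:34127474-34127533, minus strand: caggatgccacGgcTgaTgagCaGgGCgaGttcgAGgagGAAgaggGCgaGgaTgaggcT
Tubb3, chr8:123421620-123421679, plus strand: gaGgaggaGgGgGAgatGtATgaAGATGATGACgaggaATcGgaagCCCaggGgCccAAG

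Tubb3 had the most bases without a match to Tubb5 among the genes shown (29 of 60) and Tubb4a the fewest (10 of 60). Over the whole coding sequence, 98.3% of the 1353 bases of Tuba1b and 97.5% of the 1347 bases of Tuba1c were identical to Tuba1a, against 85.3% for Tuba4a. The beta genes were between 80.2% (Tubb6) and 84.6% (Tubb2a) identical to Tubb5. At the other end, where autoregulation reads the chain, Tuba1a, Tuba1b and Tuba1c open with the same bases, atgcgtgagtgc, and Tuba4a opens with atgcgcgagtgc. Among the beta genes Tubb5 opens with atgagggaaatc, Tubb3 with atgagggagatc, Tubb2a with atgcgcgagatc and Tubb2b with atgcgagagatc.

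This likeness limits which reads can be counted, since only reads with a single place in the genome were kept. Of all windows of 30 bases in the coding exons, 6.73% of those of Tuba1a, 2.38% of those of Tuba1b and 4.85% of those of Tuba1c occur once in the genome (85, 30 and 61 windows). The pairs shared most of theirs: 71.2% of the coding windows of Tuba1a are also in Tuba1b, and 84.3% of those of Tuba1b are in Tuba1c. Tubb2a and Tubb2b share 66.1%, which leaves 26.5% and 19.9% of their coding windows unique. Tubb3 has 71.4% unique coding windows, and most of the remainder (23.1% of all its coding windows) repeats outside the tubulin genes searched. Tuba4a, Tubb4a, Tubb5 and Tubb6 have between 90.7% and 96.2%. Over whole exons, UTRs included, the share was higher for Tuba1a (17.2%), Tuba1b (10.3%) and Tuba1c (31.4%). A level of Tuba1a or Tubb2b set beside one of Tubb5 is therefore a level of placed reads, and the counts of the 3 Tuba1 genes and of the Tubb2 pair are uncertain.

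**Figure D1:**
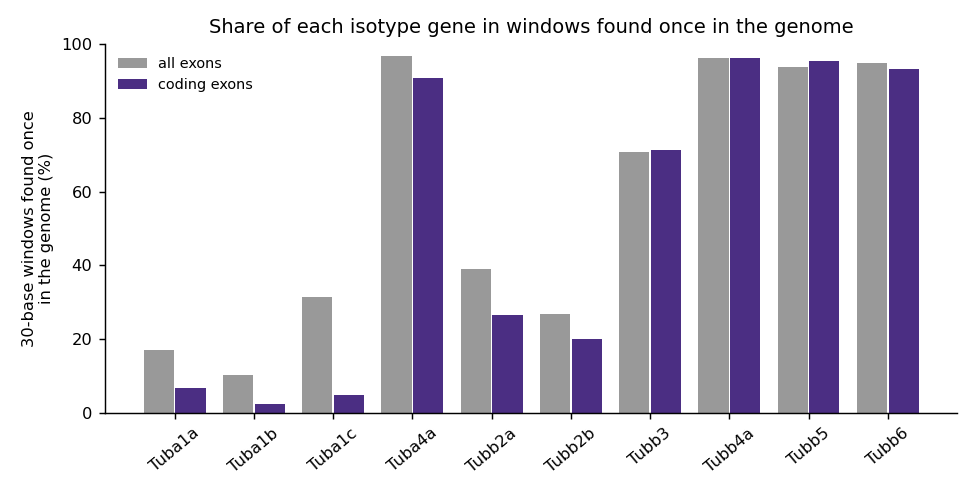
Bars give the percentage of 30-base windows of each isotype gene that occur once in the mouse genome, for all exons (grey) and for coding exons (purple). Tuba1a, Tuba1b and Tuba1c have under 7% unique coding windows, while Tubb5 has 95.5%.

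Levels are given as CPM on the TMM scale divided by the exon length of the gene in kilobases (CPM per kb), as the lowest, median and highest of the libraries of a cell type. Orders between isotypes hold for this length only. Some turn when unique windows are used instead, and examples within a family are given below and with the shares. Orders between an alpha and a beta isotype were not compared by unique windows. In total mRNA of cortical neurons Tubb3 was highest per exon length, at 421, 587 and 776 CPM per kb over the 8 cultures. Tuba1a followed at 439, 574 and 792 CPM per kb. The ranges of both overlapped, and Tubb3 was above Tuba1a in 5 of 8 cultures. Tubb2a (269, 358 and 419 CPM per kb), Tubb2b (290, 347 and 461) and Tubb5 (259, 314 and 442) formed the next group, with Tubb2a above Tubb2b in 3 of 8 cultures. Tubb4a lay below them in every culture, at 141, 185 and 227 CPM per kb. Tuba1b (31.4, 52.8 and 66.3 CPM per kb) and Tuba4a (31.5, 52.0 and 64.0) could not be ordered, since each was the higher one in 4 of 8 cultures. Tubb6 was at 3.12 to 6.11 CPM per kb, and Tuba1c at 0 to 1.09 CPM per kb, which rested on 28 counts over the 8 libraries (95% Poisson interval 18.6 to 40.5, for counting error only). The footprints gave nearly the same order, with Tubb3 at 855, 1314 and 1631 CPM per kb, Tuba1a at 988, 1146 and 1602, Tubb2a at 901, 1029 and 1357, Tubb2b at 641, 944 and 1217, Tubb5 at 678, 819 and 1099 and Tubb4a at 351, 430 and 586. Tuba4a (69.4, 91.1 and 147 CPM per kb) was above Tuba1b (47.0, 51.5 and 63.9) in all 8 footprint libraries without overlap. That order turned with counts divided by unique coding windows, where Tuba4a held 1.17% and Tuba1b 12.4% of the alpha reads of neuron footprints.

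MN1 cells were led by a single beta isotype. Tubb5 was at 414, 444 and 514 CPM per kb in total mRNA of the 6 cultures, above every other isotype without overlap. Tuba1b (179, 214 and 220 CPM per kb) and Tubb3 (157, 182 and 216) overlapped, with Tuba1b the higher one in 4 of 6 cultures. Tuba1a stood below both in all 6 cultures, at 121, 138 and 164 CPM per kb, although its range overlapped that of Tubb3. Tubb6 (54.3, 65.6 and 76.6 CPM per kb) and Tuba1c (35.6, 43.5 and 54.1) came next and did not overlap. Tubb2b and Tubb2a were lower than these, Tubb2b at 5.19, 11.3 and 16.1 CPM per kb and Tubb2a at 5.40, 8.10 and 13.2. Tuba4a (40 counts over 6 libraries) and Tubb4a (13 counts over 6 libraries) were at or below 1.03 CPM per kb. In MN1 footprints Tubb5 was at 835, 892 and 979 CPM per kb, Tubb3 at 256, 263 and 312, Tuba1a at 145, 186 and 254 and Tuba1b at 103, 122 and 126, and these 4 did not overlap with their neighbours in the order. Per exon length Tuba1b thus ranked above Tuba1a in total mRNA and below it in footprints of MN1 cells. Tuba1b has the fewest unique coding windows of all 10 genes, and with counts divided by unique windows (coding ones for footprints, exonic ones for total mRNA) it was above Tuba1a in both, with 59.4% against 30.2% of the alpha reads in footprints and 67.0% against 28.3% in total mRNA.

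**Figure D2:**
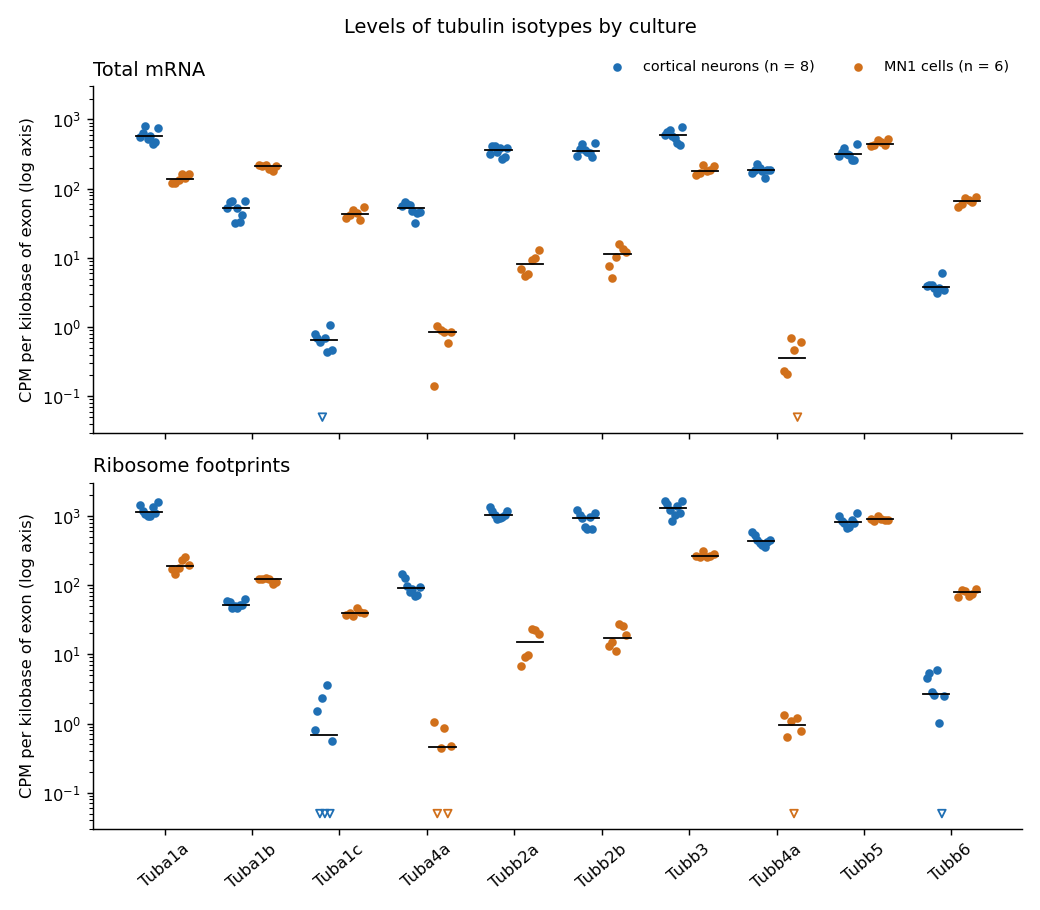
Each point is 1 library, the vertical log axis gives CPM per kb of exon in total mRNA (upper panel) and footprints (lower panel), and black lines are medians over 8 neuron and 6 MN1 cultures. Open triangles mark libraries with 0 counts. Neuron and MN1 points overlap for Tubb5 and for no other isotype. The share of all genes without overlap was not counted.

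To ask which isotypes the cell types use, neurons were compared with MN1 cells in a single model per library type, with the mean of the 3 neuron groups set against the mean of the 3 MN1 groups. In total mRNA 6 of the 10 isotypes were higher in neurons and 4 were lower. Among all 12801 genes tested, 42.6% were called higher and 38.4% lower at an edgeR adjusted p under 0.05, so a call by itself was common and the sizes carry more than the counts. The median log2 fold change was 1.8 over the 10 isotypes and 0.09 over all genes tested. In footprints 6 isotypes were higher and 3 were lower, beside 42.7% higher and 39.9% lower among 10698 genes. Because Ara-C-treated neurons hardly divide and MN1 cells do (markers above), cell type, division and culture conditions cannot be told apart.

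Tubb4a had the largest difference, with a log2 fold change (neurons over MN1) of 9.06 ± 0.23 (SE) in total mRNA and 8.92 ± 0.22 in footprints. Its level in MN1 cells rested on 13 and 9 counts, so these sizes depend on how the model treats low counts. Tuba4a, an alpha isotype abundant in adult brain and muscle, followed at 6.00 ± 0.24 in total mRNA and 8.48 ± 0.25 in footprints, and its MN1 level rested on 40 and 10 counts. The Tubb2 pair was better measured. Tubb2a was higher by 5.32 ± 0.23 in total mRNA (adjusted p = 2.3e-11) and by 6.20 ± 0.23 in footprints (adjusted p = 2.9e-16). Tubb2b was higher by 5.00 ± 0.25 in total mRNA (adjusted p = 1.4e-10) and by 5.65 ± 0.20 in footprints (adjusted p = 1.9e-16). The isotypes that both cell types hold in quantity moved less. Tuba1a was 4.03-fold higher in neurons in total mRNA (log2 2.01 ± 0.16, adjusted p = 2.0e-08) and 6.23-fold higher in footprints. Tubb3 was 3.02-fold higher in total mRNA (log2 1.59 ± 0.14, adjusted p = 9.3e-08) and 4.71-fold higher in footprints. For both genes the lowest neuron culture lay above the highest MN1 culture, in either library type.

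The isotypes that were lower in neurons were those used widely outside the nervous system. Tuba1c fell by 6.21 ± 0.21 on the log2 scale in total mRNA (adjusted p = 3.1e-12) and had a log2 fold change of −5.29 ± 0.32 in footprints, with 28 and 15 counts in all neuron libraries together. Tubb6 fell by 4.15 ± 0.14 in total mRNA (adjusted p = 3.2e-12), and its log2 fold change in footprints was −4.58 ± 0.19. Tuba1b, the isotype nearest to Tuba1a in sequence, was 4.25-fold lower in neurons in total mRNA (log2 −2.09 ± 0.16, adjusted p = 1.7e-08) and 2.29-fold lower in footprints (adjusted p = 1.3e-09). Tubb5 was 1.46-fold lower in neurons in total mRNA (log2 −0.55 ± 0.14, adjusted p = 0.0019). In footprints its difference did not pass (log2 −0.10 ± 0.12, 95% interval −0.33 to 0.14, adjusted p = 0.46). With the GFP and WT cultures alone, Tubb5 no longer passed in total mRNA either (log2 −0.41, adjusted p = 0.46), and the other 9 isotypes kept their calls and directions in both library types.

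Set against each other within a library, the isotypes of a family give shares that do not depend on the scaling of libraries. Counts were divided by exon length, and the 4 alpha or 6 beta genes were set to 100% in each library. Tuba1a supplied 85.3% ± 1.4 (SD, n = 8) of the alpha reads of neuron total mRNA and 35.9% ± 3.9 (n = 6) in MN1 cells. Tuba1b supplied 7.21% ± 0.98 and 52.8% ± 4.1, and Tuba1c 0.0888% ± 0.056 and 11.1% ± 1.1. Tuba4a made up 7.41% ± 1.4 in neurons and 0.186% ± 0.081 in MN1 cells. In MN1 footprints Tuba1a took 54.7% ± 5.7 and Tuba1b 33.8% ± 5.2, against 88.9% ± 1.8 and 3.94% ± 0.32 in neuron footprints. Neurons thus used mainly a single alpha gene, and MN1 cells divided their alpha reads among 3.

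The beta family showed the opposite picture. Neuron total mRNA was spread over Tubb3 (32.4% ± 2.1), Tubb2b (19.9% ± 1.3), Tubb2a (19.3% ± 1.5), Tubb5 (17.9% ± 0.72) and Tubb4a (10.2% ± 1.3). MN1 total mRNA was 62.7% ± 1.4 Tubb5, 25.6% ± 1.1 Tubb3 and 9.06% ± 0.29 Tubb6. In footprints Tubb5 held 70.0% ± 1.3 of the beta reads of MN1 cells and 18.6% ± 1.1 of those of neurons. With all alpha and beta tubulin genes in the denominators, Tubb5 held 65.4% and 18.2% in footprints and 58.3% and 17.6% in total mRNA. Tubb4b, a beta gene outside the 10, has 21.5% unique coding windows. Each of the 20 shares (10 isotypes in 2 library types) separated the 8 neuron cultures from the 6 MN1 cultures without overlap, which gave the smallest p of the exact two-sided permutation test over 3003 arrangements (p = 0.000666, Benjamini-Hochberg adjusted p = 0.000666). Shares of a family sum to 100%, so the tests within a family are not independent of each other. Differences between the cell types were common over all genes (42.6% higher and 38.4% lower in total mRNA by edgeR). How many of all genes separate the cultures without overlap was not counted. The shallowest library, a neuron footprint culture with hTDP-43 (replicate 3), had 383 alpha reads, of which 320 were from Tuba1a. As a share of reads not divided by length this was 83.6% (exact 95% binomial interval 79.5% to 87.1%, for counting error only), and per exon length it was 90.04%.

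The length used turned the direction of Tubb3 between the cell types and some orders within a cell type. Per exon length the share of Tubb3 was higher in neurons than in MN1 cells by 6.79 percentage points in total mRNA and by 6.96 points in footprints. When counts were divided by the number of unique 30-base windows instead, the difference of Tubb3 (neurons minus MN1 cells) was −7.54 points in total mRNA (23.0% against 30.5%, exact permutation test, adjusted p = 0.0007) and −1.71 points in footprints (14.8% against 16.5%, adjusted p = 0.006 in the same test, with overlap). Tubb2a and Tubb2b then took 25.2% and 37.2% of the beta reads of neuron total mRNA and 28.8% and 38.5% of those of neuron footprints, above Tubb3 in both. In MN1 footprints the share of Tuba1a went from 54.7% per exon length to 30.2% and that of Tuba1b from 33.8% to 59.4%, and in neuron footprints that of Tuba1b went from 3.94% to 12.4%. The other 9 isotypes kept their direction in both library types under this choice. Tuba1a then made up 86.8% of the alpha reads of neuron total mRNA and 28.3% of those of MN1 cells, and Tubb5 made up 9.22% and 54.2% of the beta reads.

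**Figure D3:**
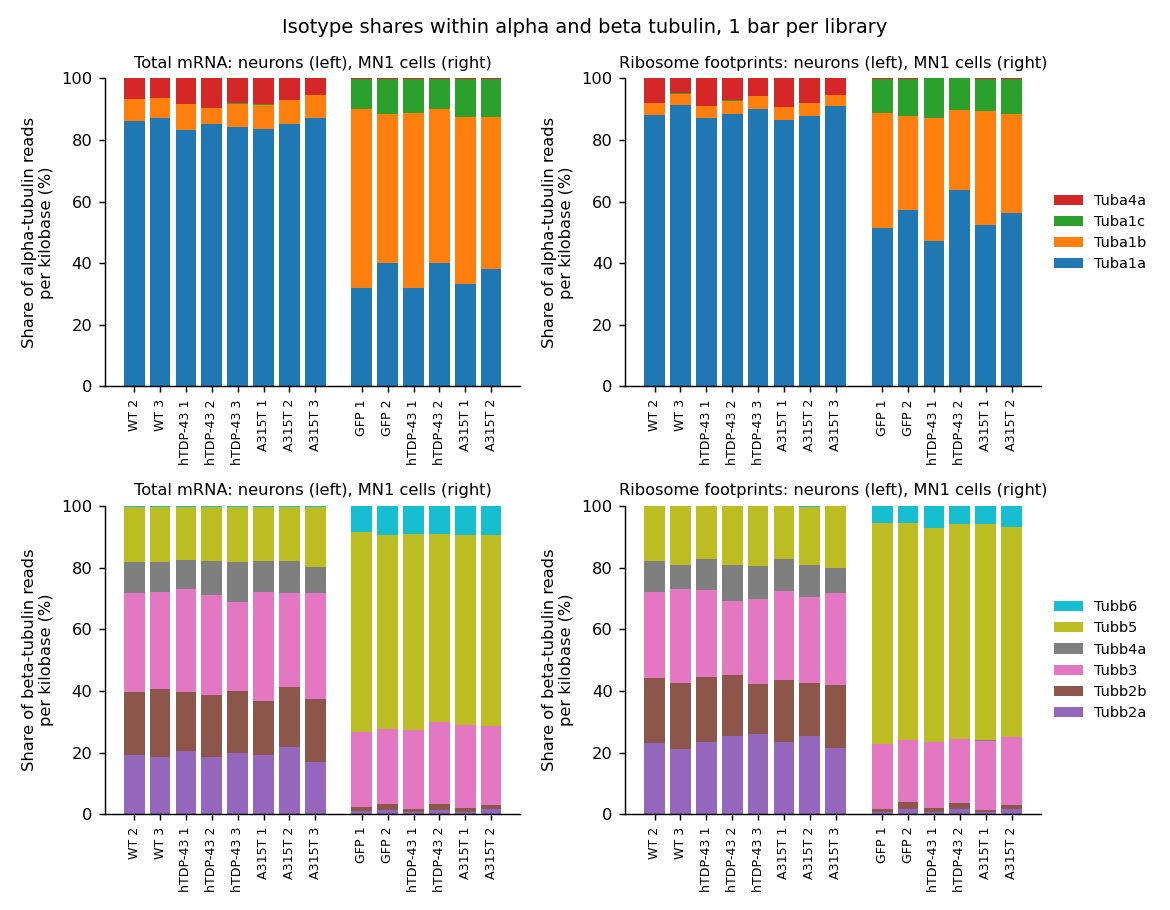
Stacked bars show, for each library, the share of reads per kilobase that each isotype takes of the alpha (upper row) or beta (lower row) reads, in total mRNA (left) and footprints (right). Neuron bars are mostly Tuba1a and are split over 5 beta isotypes, whereas MN1 bars show Tuba1a, Tuba1b and Tuba1c together and are mostly Tubb5.

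Summed over the family, alpha reads in total mRNA were at 504 to 919 CPM per kb in neurons and at 359 to 433 in MN1 cells, and beta reads were at 1449 to 2247 and at 640 to 827 CPM per kb. Alpha reads were 0.388 times the beta reads in neuron total mRNA (median over cultures, range 0.341 to 0.419) and 0.534 times in MN1 total mRNA (range 0.496 to 0.593). Both subunits are needed in equal number for the dimer, and the 3 Tuba1 genes have the fewest windows in which a read can be placed, so these ratios are of placed reads.

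Footprints were compared with total mRNA within each cell type, in relation to other genes. Footprints lie mainly on coding bases, while total mRNA reads lie on whole exons, and the ratio was not corrected for these lengths. Coding bases were 1335 of 1584 exon bases in Tubb2a and 1344 of 3701 in Tuba4a. The ratio is therefore not a measure of ribosome density alone. In neurons 9 isotypes could be tested, Tuba1c having too few counts. Of these, 7 were higher in footprints than in total mRNA and none was lower, beside 26.6% higher and 27.3% lower of the 11654 genes tested (edgeR, adjusted p under 0.05). Tubb2a stood highest, with footprint over total ratios of 2.44, 3.22 and 3.68 (lowest, median and highest of 8 cultures) and a log2 difference of 1.71 ± 0.11 (adjusted p = 5.2e-09). Tubb5 (1.48 ± 0.14), Tubb2b (1.42 ± 0.14), Tubb4a (1.36 ± 0.11), Tubb3 (1.24 ± 0.14), Tuba1a (1.14 ± 0.14) and Tuba4a (1.02 ± 0.13) were higher in log2 footprints over total mRNA as well. Tuba1b differed by 0.16 ± 0.16 (adjusted p = 0.43) and Tubb6 by −0.22 ± 0.32 (adjusted p = 0.68, 51 footprint counts), and neither passed. In WT neurons alone, 0 of 11012 genes passed in either direction by edgeR (2340 had an unadjusted p under 0.05, 5 isotypes among them), so these calls rest on all 3 genotypes together.

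In MN1 cells 8 isotypes could be tested, without Tuba4a and Tubb4a. Of these, 5 were higher in footprints and 1 was lower, beside 27.2% higher and 30.2% lower of 10212 genes. Tubb5 was highest, with ratios of 1.68, 1.98 and 2.20 over the 6 cultures and a log2 difference of 1.02 ± 0.09 (adjusted p = 4.4e-07). Tubb3 (0.59 ± 0.09, adjusted p = 4.4e-05) and Tuba1a (0.50 ± 0.15, adjusted p = 0.0093) were higher too. Tuba1b was lower, with ratios of 0.523, 0.573 and 0.626 and a log2 difference of −0.76 ± 0.09 (adjusted p = 5.6e-06). Tubb2b (0.74 ± 0.30, adjusted p = 0.047) and Tubb6 (0.28 ± 0.09, adjusted p = 0.021) passed narrowly. The call for Tubb2b was lost without replicate 1 or 2 of hTDP-43 A315T, replicate 2 of GFP or replicate 1 of hTDP-43 (lowest log2 difference 0.66), and the call for Tubb6 without replicate 1 or 2 of hTDP-43 A315T or replicate 1 of GFP or hTDP-43 (lowest 0.20). Without replicate 1 or replicate 2 of hTDP-43 A315T, or without replicate 1 of hTDP-43, the count of higher isotypes was 3. Tubb2a did not pass (0.82 ± 0.36, adjusted p = 0.068), but did so when each culture was a block (0.88 ± 0.22, adjusted p = 0.0015). Tuba1c differed by −0.10 ± 0.11 (adjusted p = 0.46). Tuba1b and Tuba1c, with 2.38% and 4.85% unique coding windows, had the lowest median ratios of the isotypes tested in MN1 cells (0.573 and 0.961), and Tubb5 with 95.5% had the highest. Of the others, Tubb6 with 93.2% was at 1.15, Tuba1a with 6.73% at 1.38 and Tubb3 with 71.4% at 1.44. Tubb2a and Tubb2b with 26.5% and 19.9% were at 1.68 and 1.73. Total mRNA reads are placed by windows of all exons, UTRs included, so the coding share alone does not describe placement in a ratio. The part of read placement in these ratios was not tested.

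**Figure D4:**
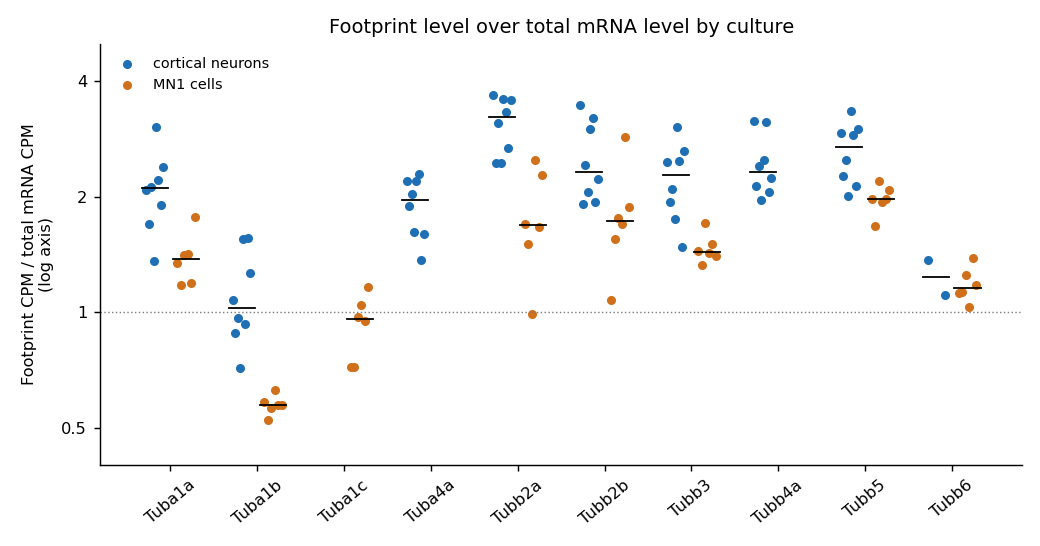
Points give the footprint CPM divided by the total mRNA CPM of the same culture on a log axis for neurons (blue) and MN1 cells (orange), where both libraries had at least 10 counts, and black lines are medians. Tubb2a and Tubb5 have the highest medians in neurons (3.22 and 2.69), and Tuba1b has the lowest in MN1 cells (0.573).

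The difference between the cell types in footprints over total mRNA was itself tested as an interaction. Over all 12358 genes tested the median of this difference was 0.20 on the log2 scale, 5.94% of the genes were higher in neurons and 2.13% were higher in MN1 cells, so values of the isotypes are best read against 0.20. Tuba1b (1.01 ± 0.20, adjusted p = 0.0027), Tuba4a (2.91 ± 0.72, adjusted p = 0.014), Tubb3 (0.75 ± 0.19, adjusted p = 0.014) and Tuba1a (0.74 ± 0.22, adjusted p = 0.034) were higher in neurons, and no isotype was higher in MN1 cells. The value for Tuba4a rests on 10 footprint counts in MN1 cells. With each culture as a block, Tubb2a (0.96 ± 0.23, adjusted p = 0.0090), Tubb2b (0.70 ± 0.21, adjusted p = 0.031) and Tubb5 (0.57 ± 0.17, adjusted p = 0.030) passed as well, which made 7 isotypes. These calls were fragile. With RLE in place of TMM scaling, the median over all genes moved to −0.02, the calls over all genes turned from 734 higher and 263 lower to 187 higher and 417 lower, and 2 isotypes passed. The call for Tuba1a was lost when any of 11 of the 14 cultures was left out, all except replicate 2 of WT, replicate 3 of hTDP-43 A315T neurons and replicate 2 of MN1 hTDP-43. Without replicate 1 of MN1 hTDP-43 none of the isotypes passed, and without replicate 2 of WT 7 did. Without replicate 3 of WT, or without replicate 1 or 2 of MN1 hTDP-43 A315T or replicate 2 of MN1 GFP, 2 passed. Calls over all genes are not given here for the fits with a block or with a culture left out. A shift over all genes is thus not separated from a shift of the isotypes in those counts. Only MN1 cells received cycloheximide before lysis, and its part in the difference between the cell types cannot be told apart from the cell type.

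The comparisons for which the study was made, of hTDP-43 and hTDP-43 A315T with their controls, called none of the isotypes. This held for the 12 comparisons of 2 groups within a cell type and library type and for the 6 interactions of genotype with library type, with and without a block. None of the isotypes had an unadjusted p under 0.05 there by edgeR or by DESeq2, and with the block Tubb3 in MN1 total mRNA and Tubb6 in MN1 footprints did, both with hTDP-43 A315T against GFP (edgeR adjusted p of 0.18 and 0.55). Without a block, few genes were called at all by edgeR: 0.0115% of 8659 genes in MN1 footprints with hTDP-43 A315T against GFP (1 gene), 0.00965% of 10361 in MN1 total mRNA with hTDP-43 A315T against GFP (1 gene), 0.01% of 9954 in MN1 total mRNA with hTDP-43 against GFP (1 gene), and 0% in each of the other comparisons. These counts depended on the fit. With the replicate block, hTDP-43 A315T against GFP called 39 genes higher and 15 lower in MN1 footprints and 109 higher and 174 lower in MN1 total mRNA, and hTDP-43 against GFP called 9 higher and 38 lower in MN1 total mRNA. For hTDP-43 A315T against hTDP-43 the block gave 36 higher and 18 lower in MN1 footprints and 56 higher and 20 lower in MN1 total mRNA, and against WT 0 higher and 35 lower in neuron total mRNA. Without replicate 2 of WT, which left 1 WT culture that is assumed to vary like those of the other group, hTDP-43 A315T against WT called 748 genes higher and 825 lower of 12558 in neuron total mRNA. Without replicate 2 of hTDP-43, hTDP-43 A315T against hTDP-43 called 71 higher and 263 lower in MN1 total mRNA, and without replicate 2 of GFP, hTDP-43 A315T against GFP called 49 higher and 207 lower there. None of these fits called an isotype. In the direct test without a block of hTDP-43 A315T against control between the cell types, 0% of 10866 genes passed in footprints and 0% of 12962 in total mRNA, and the smallest edgeR adjusted p of an isotype was 1.0 in both.

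Levels of the main isotypes overlapped between genotypes in neurons. In neuron total mRNA Tubb3 was at 460 and 703 CPM per kb in the WT cultures, at 421, 579 and 658 with hTDP-43 and at 531, 594 and 776 with hTDP-43 A315T. The WT cultures alone spanned most of the range of the other 6. Tuba1a was at 439 and 792 CPM per kb in WT, at 468, 522 and 644 with hTDP-43 and at 565, 584 and 755 with hTDP-43 A315T, again with all 3 groups overlapping. Log2 fold changes of the 9 isotypes tested in neuron total mRNA lay between −0.28 and 0.28 over the 3 comparisons, with 95% intervals that reached from −0.996 to 0.88. The smallest unadjusted p there was for Tuba4a, with hTDP-43 A315T against hTDP-43 (log2 −0.20 ± 0.16, edgeR adjusted p = 1.0). In neuron footprints it was for Tubb4a, with hTDP-43 against WT (0.31 ± 0.16, edgeR adjusted p = 0.91). Tubb4a footprints were at 351 and 446 CPM per kb in WT and at 409, 415 and 586 with hTDP-43. In the neuron interactions with library type it was for Tubb6, with hTDP-43 A315T against WT (1.20 ± 0.76, edgeR adjusted p = 1.0).

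In MN1 total mRNA Tubb3 was at 157 and 179 CPM per kb with GFP, at 170 and 185 with hTDP-43 and at 211 and 216 with hTDP-43 A315T. Both cultures with hTDP-43 A315T were thus the highest of the 6, and this isotype had the smallest unadjusted p in MN1 total mRNA (log2 0.22 ± 0.12 against GFP, edgeR adjusted p = 0.85), which did not pass. Tubb5 was at 414 and 466 CPM per kb with GFP, at 423 and 423 with hTDP-43 and at 496 and 514 with hTDP-43 A315T. Tuba1c was at 37.5 and 45.2 CPM per kb with GFP and at 48.9 and 54.1 with hTDP-43 A315T, and Tubb6 was at 54.3 and 68.2 and at 74.1 and 76.6, so that neither overlapped, and neither passed. The share of all genes that separate in this way was not counted, so these values, and those of Tubb3 and Tubb5, are a description only. An exact test of 2 against 2 cultures cannot give a p below 0.333. Tuba1a was at 122 and 162 CPM per kb with GFP, at 121 and 144 with hTDP-43 and at 132 and 164 with hTDP-43 A315T. In MN1 footprints the smallest unadjusted p was for Tubb6, with hTDP-43 A315T against GFP (log2 0.30 ± 0.18, edgeR adjusted p = 1.0). In the MN1 interactions with library type it was for Tuba1c, with hTDP-43 A315T against hTDP-43 (−0.43 ± 0.27, edgeR adjusted p = 1.0). With 2 cultures a group, the 95% intervals of Tubb2a and Tubb2b were wide and reached from −1.30 to 0.998 in footprints and from −1.33 to 1.09 in total mRNA. For the other 6 isotypes tested they were narrower, from −0.62 (Tuba1a) to 0.65 (Tubb6) in footprints and from −0.42 (Tuba1a) to 0.58 (Tuba1c) in total mRNA.

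**Figure D5:**
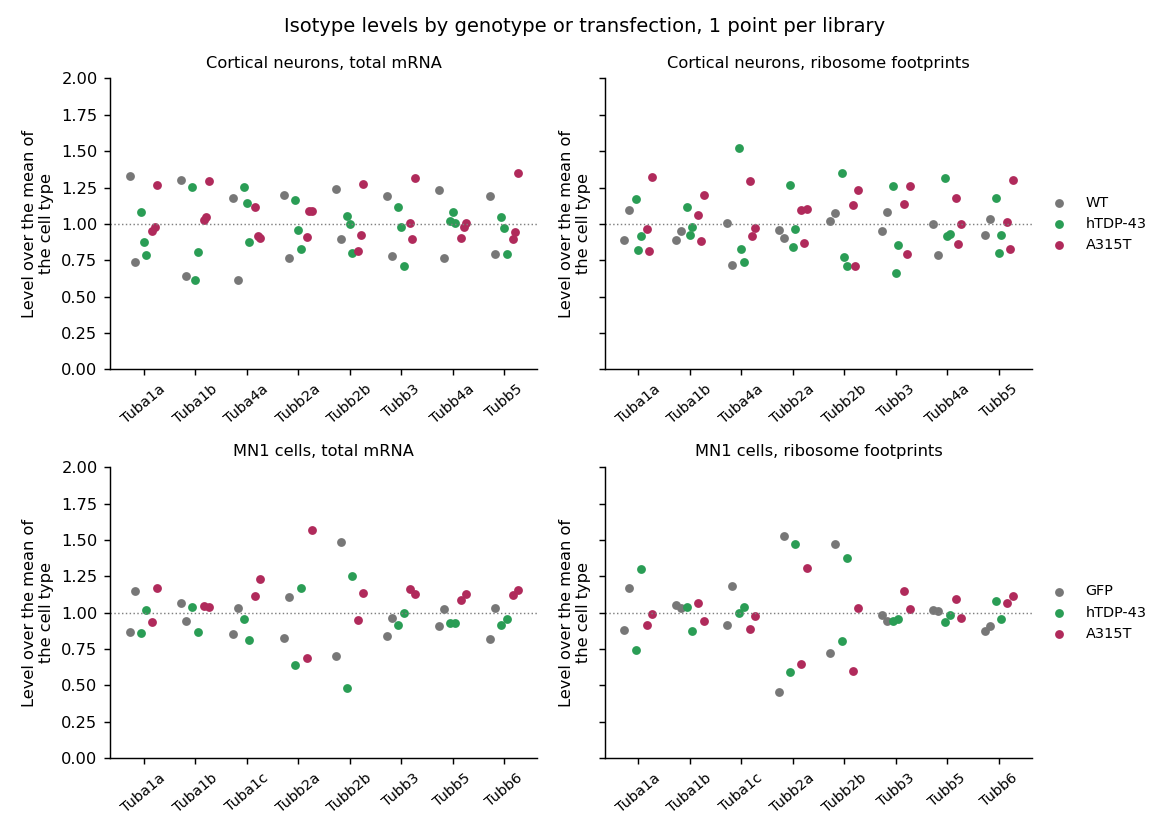
Each point is 1 library, and the vertical axis gives the level of an isotype divided by its mean over all libraries of that cell type and library type, with controls in grey, hTDP-43 in green and hTDP-43 A315T in red. In neurons the points of hTDP-43 and hTDP-43 A315T overlap those of WT for all 8 isotypes drawn, and in MN1 cells Tubb2a and Tubb2b spread most. In MN1 cells the points of hTDP-43 A315T overlap those of GFP for 4 of 8 isotypes in total mRNA and for 6 of 8 in footprints. The share of all genes that overlap in this way was not counted, so these numbers are a description only.

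Within MN1 cells some isotypes differed between the replicate numbers, which stand for the days of the experiment. Tubb2a was at 5.40 to 6.91 CPM per kb in total mRNA of the 3 replicate 1 cultures and at 9.29 to 13.2 in that of the 3 replicate 2 cultures. In footprints it was at 6.85 to 9.82 and at 19.8 to 23.1 CPM per kb. Tubb2b was at 5.19 to 10.3 and 12.3 to 16.1 CPM per kb in total mRNA, and Tuba1a at 121 to 132 and 144 to 164. These 3 isotypes were higher in replicate 2 in each of the 3 groups, in both library types, while Tuba1b was lower in replicate 2 in each of the 3 groups. How many of all genes went 1 way in all groups was not counted. Same-numbered MN1 libraries also deviated together across genes (average correlation 0.336 in footprints and 0.442 in total mRNA). Tubb3 and Tubb5 followed the replicate number in some groups and not in others.

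Genes that make, fold, modify and bind tubulin were compared between the cell types by the same fits, and their counts are to be read against the shares over all genes given above. Of 10 other tubulin genes, 6 could be tested in total mRNA, of which 1 was higher in neurons and 5 were lower (median log2 fold change −1.69). Tubg2, a gamma tubulin of the brain, was higher (2.42 ± 0.26), while the ubiquitous gamma tubulin Tubg1 (−2.15 ± 0.15), Tube1 (−2.25 ± 0.29), a centriolar tubulin, and Tuba8 (−4.25 ± 0.34), an alpha tubulin, were lower. Of 16 genes of microtubule nucleation, which form the gamma-tubulin ring complex and the augmin complex that branches spindle microtubules, none was higher in neurons and 14 were lower in total mRNA (median −1.42). The largest falls were of Nedd1 (−4.80 ± 0.34), which brings the ring complex to centrosomes, and of the augmin subunits Haus4 (−4.69 ± 0.20) and Haus1 (−3.63 ± 0.34). In footprints 11 of 15 nucleation genes were lower and 1 was higher.

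Of 22 genes of tubulin folding, 3 were higher in neurons and 13 were lower in total mRNA (median −1.08), and in footprints 3 were higher and 16 lower. The largest falls were of subunits of the chaperonin CCT, which folds newly made tubulin, namely Cct6a (−2.73 ± 0.13), Cct2 (−2.46 ± 0.12) and Tcp1 (−2.42 ± 0.11). Cct6a was at a median of 113 CPM in neuron and 730 CPM in MN1 total mRNA. The 3 that were higher were Ttc5 (1.24 ± 0.17), the autoregulation factor, and the tubulin cofactors Tbcb (0.61 ± 0.17) and Tbcel (0.55 ± 0.13). Ttc5 was at a median of 38.0 CPM in neuron and 14.8 CPM in MN1 total mRNA, and was higher in neuron footprints too (1.54 ± 0.20, adjusted p = 4.9e-07).

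Enzymes that modify tubulin and proteins that bind microtubules went mostly the other way. Of 20 modification genes tested in total mRNA, 14 were higher in neurons and 2 were lower (median 1.30). Agtpbp1, a carboxypeptidase that shortens glutamate chains on the tubulin tail, was higher by 3.90 ± 0.22, Vash1, a tubulin detyrosinating enzyme, by 3.26 ± 0.20, and Tpgs2, a subunit of a polyglutamylase complex, by 2.90 ± 0.16. Ttll12 (−2.18 ± 0.12) and the glutamylase Ttll4 (−2.11 ± 0.14) were lower. Of 23 microtubule-associated proteins and stathmins, 21 were higher in neurons and 1 was lower (median 2.20), and in footprints 20 of 22 were higher and 1 lower. Doublecortin (Dcx), a microtubule-stabilising protein of young neurons, was at a median of 202 CPM in neuron and 0.227 CPM in MN1 total mRNA. Its relative Dclk1 (912 against 4.41 CPM) and the tubulin-binding stathmin Stmn2 (936 against 1.99 CPM) differed in the same direction. Mid1ip1, which binds the microtubule-associated MID1 protein, was the gene that was lower (−1.41 ± 0.18).

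Genes whose total mRNA followed an isotype across cultures of 1 cell type are given as a description. Over the 8 neuron cultures and 4614 genes with a mean of at least 50 CPM, Tuba1a was followed most closely by Stmn1, a stathmin that binds tubulin dimers (Pearson r = 0.976 of log2 CPM), and then by Hars and Iglon5. Tubb3 was followed by Islr2 (r = 0.964), a membrane protein of growing axons, and then by Trap1 and Supt5. Over the 6 MN1 cultures and 4081 genes, Cyb5r1, Vegfa and Pmvk were nearest to Tuba1a (r of 0.988 to 0.996) and Cmtm4, Foxm1 and Ptpn1 to Tubb3 (r of 0.993 to 0.998). With so few points that share libraries and days, such values are no sign of a relation. None of these neighbours was shared between the cell types.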

How the data were processed

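Ribosome footprints and poly(A)-selected total mRNA of 14 cultures were analysed. Per the labels and the study's methods, the authors trimmed reads with cutadapt 1.8.1, removed non-coding RNA with Bowtie2, aligned the rest to GRCm38 with TopHat2 and counted uniquely placed reads on exons with featureCounts 1.4.4. The deposited values are raw counts, neither normalized nor pooled. Strand use is not given in the sources used here, so overlapping genes on opposite strands cannot be told apart. The deposited exon length of each gene is in bases.

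Groups were taken from the sample labels, and all 28 libraries were used. Counts were tested with edgeR 4.0.16 in R 4.3.3 (minimum count 10, minimum total count 15, TMM, quasi-likelihood test) over all genes, with Benjamini-Hochberg adjustment and a threshold of 0.05. Genotype comparisons used the libraries of the groups compared, cell types all libraries of a library type, and library types all libraries of a cell type. The study's DESeq was replaced by edgeR, with DESeq2 1.42.0 as an alternative. SEs were derived from the log2 fold change and its F statistic, and were left out above an unadjusted p of 0.9. The 95% intervals of log2 fold changes use a normal approximation, so they are narrower than the F test itself would give. Isotype shares were tested with an exact two-sided permutation test (SciPy 1.17.1) over cultures. Alternatives were a replicate block, RLE scaling, DESeq2, no low-count filter, control groups only, each culture left out, 2 neuron cultures left out together (added after seeing the data) and, for shares, other lengths and denominators. Unique windows of 30 bases were counted by exact match on both strands of 22 chromosomes of GRCm38.p6, without windows across exon junctions. The fit code was also run on simulated counts with a single spread and no replicate effect. These differ from the data, and the outcome is not used here.

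Replicate numbers pair the samples, since within a cell type a shared number goes with a shared date in the titles (in 1 library the year differs). Across genes, same-numbered libraries on average deviated together from their group means, with an average correlation of 0.336 (MN1 footprints), 0.442 (MN1 total mRNA), 0.120 (footprints of neurons) and 0.171 (total mRNA of neurons). Not every neuron pair did so, since the 7 correlations ranged from 0.0293 to 0.248 in footprints and from −0.175 to 0.520 in total mRNA. Separate cultures are the replicates, and all count columns differed. Precision is set by depth: 3 counts stood for 0.43 to 5.00 CPM in neuron total mRNA and for 2.46 to 9.03 CPM in MN1 footprints.

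All 10 isotypes are named with levels and with fold changes between cell and library types. In genotype comparisons the rule named isotypes that passed, and otherwise the one with the smallest unadjusted p per cell type and library type and among a cell type's interactions. Of each gene list, up to 3 genes with the largest rises and falls past the threshold in total mRNA are named. Lists and isotypes were chosen with earlier results of these data known. Protein sequences were not used here.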

Additional observations from a re-analysis of the deposited data

Results flagged for a closer look

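In 4 isotypes the difference between footprints and total mRNA was not the same in the cell types by the interaction test (edgeR). The log2 value in neurons exceeded that in MN1 cells by 1.01 ± 0.20 for Tuba1b, by 2.91 ± 0.72 for Tuba4a, by 0.75 ± 0.19 for Tubb3 and by 0.74 ± 0.22 for Tuba1a, beside a median of 0.20 over all 12358 genes tested. Tuba1b and Tuba1a have 2.38% and 6.73% unique coding windows, Tuba4a had 10 footprint counts in MN1 cells, and cycloheximide was given to MN1 cells only. The part of each in the difference was not tested. Without replicate 3 of WT and of hTDP-43, whose neuron total mRNA held the most Lars2, Tuba1a did not pass (0.55, edgeR adjusted p = 0.12). Groups of 2 or 3 cultures are outside the size that the test for a single deviating sample needs.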

How the results depend on the processing

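Between the cell types, 6 isotypes were higher in neurons under every alternative run and with any culture left out, and the lower ones numbered 3 in footprints and 3 or 4 in total mRNA. No isotype was called in a genotype comparison under any alternative run or with any culture left out. Footprints over total mRNA was less stable. With the GFP or WT cultures alone, 2 isotypes were higher in MN1 cells, 0 in neurons and 0 in the interaction. The interaction counted 7 isotypes with the replicate block and 2 with RLE scaling, and with a culture left out it ranged from 0 to 7. In MN1 cells the count of higher isotypes ranged from 3 to 5 with a culture left out. The block changed no other count of isotypes by over 1.5 times. Leaving out both neuron cultures with the most Lars2, an alternative added after seeing the data, changed no count of isotypes by over 1.5 times. For most of these alternatives the calls over all genes are not given here, so a shift over all genes is not separated from one of the isotypes. Some values without a call changed sign. Tubb5 between cell types in footprints ranged from −0.119 to 0.0914 with a culture left out. Tuba1c in MN1 footprints over total mRNA was 0.0198 with GFP alone. Tuba1b in neurons was −0.000212 with WT alone and −0.0657 without the cultures with the most Lars2, and ranged from −0.0833 to 0.302 with a culture left out. In the interaction Tubb4a was −0.14 with RLE scaling and −0.25 with DESeq2 and ranged from −1.05 to 1.66 with a culture left out, and Tuba1c was −0.75 without the cultures with the most Lars2 and ranged from −0.79 to 1.58. The share of Tubb3 turned to −1.71 percentage points in footprints and −7.54 in total mRNA when counts were divided by unique windows. The shares of GFP against WT cultures alone kept every direction, but 2 against 2 cultures cannot give a p below 0.333. Depth limits what can be said of Tuba1c in neurons (0 to 8 counts a library) and of Tuba4a and Tubb4a in MN1 cells (0 to 11 counts).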
